A study of Mus musculus with 6 samples.

Results

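The genes described here form the machinery with which a cell detects RNA and DNA in its cytosol. They were chosen by name and role, with no threshold on their values: the RNA helicases Ddx58, Ifih1 and Dhx58, their adaptor Mavs, the DNA sensor cGAS (listed under the older symbol Mb21d1), its partner STING (listed as Tmem173), the kinases Tbk1 and Ikbke, the sensor Zbp1 and the exonuclease Trex1. Earlier results of these data were known when the genes and the lists below were chosen. Their counts beside the shares of all genes are therefore a description and not an independent test. All 10 were found among the 54532 genes of the deposited table. The 6 RNA-seq libraries were given as mouse vascular smooth muscle cells of the aorta. The cells carried a control adenovirus in 3 libraries (Ad-Con, genotype given as wild type) and an adenovirus for PDK4 in the other 3 (Ad-PDK4, genotype given as PDK4 overexpression). Both groups therefore received an adenoviral vector, and per the study's text both had been treated with angiotensin II, which the labels leave out. The study's methods name a pEnCMV plasmid for PDK4 without tying it to the adenovirus, the dose of the vector is not given in the sources used here, and cells without vector or without angiotensin II were not analysed here. The study calls its libraries biological replicates. The labels do not say whether they came from separate cultures or mice, and if they did not, the p-values measure only technical spread.

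As background, RIG-I (encoded by Ddx58) binds RNA with a triphosphate or diphosphate at its end, MDA5 (Ifih1) binds long double-stranded RNA, and LGP2 (Dhx58) lacks the signalling domains of both and modulates them. RIG-I and MDA5 signal through MAVS on the outer mitochondrial membrane. cGAS answers cytosolic DNA by making a cyclic dinucleotide that activates STING, and both routes meet at TBK1 and IKK-epsilon (Ikbke), which phosphorylate interferon regulatory factors. ZBP1 binds nucleic acids in the Z conformation and can start necroptosis, and TREX1 degrades cytosolic DNA. Several of these sensors are themselves induced by interferon.

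Depth and identity were checked first. The libraries held 17588942 to 21861872 reads on genes, and replicates of a group differed by more than sampling noise (chi-square per degree of freedom 3.99 to 10.9, against 77.1 to 97.7 between groups). Pdk4, the gene named in the labels, was at 9.50, 10.4 and 10.1 FPKM (fragments per kilobase of gene length, scaled between libraries) in Ad-Con and at 7.67, 7.40 and 7.38 in Ad-PDK4. It was lower in the libraries labelled as overexpressing it (log2 fold change -0.42, adjusted p = 1.1e-03, limma with Benjamini-Hochberg adjustment), so Ad-PDK4 stands below for the libraries labelled Ad-PDK4. Among smooth muscle markers, 5 of 10 were tested, of which 1 rose and 2 fell. Of all 13423 genes tested, 21.8% were called higher and 20.8% lower, the shares to read the marker counts against. Acta2 fell from 78.0 to 36.2 FPKM and Tpm2 from 27.8 to 22.1, Cald1 rose from 56.0 to 71.9, and Smtn was at 8.32 and 8.44. Lmod1 was at 0.720 FPKM in Ad-Con and 0.570 in Ad-PDK4. The markers not tested were near the floor in both groups. Cnn1 was at 0.466 and 0.247 FPKM, Tagln at 0.341 and 0.292, Des at 0.186 and 0.047, and Myocd at 0.016 and 0.036. Myh11 had 2 to 10 reads per library. These markers near the floor do not bear out the cell type given, and which cells were present was not tested. The list's summed level was 171 to 172 FPKM in Ad-Con and 134 to 145 in Ad-PDK4, made up mostly of Acta2, Cald1 and Tpm2. Of 12 macrophage and leukocyte markers, Ptprc, Tyrobp, C1qa, C1qb and Itgam had 0 reads in every library, Cd68 fell from 14.2 to 4.24 FPKM and Cd14 rose from 12.8 to 18.8. That list summed to 27.9 to 31.1 FPKM in Ad-Con and 24.9 to 27.6 in Ad-PDK4. Of 7 dendritic cell markers, Siglech, Flt3 and Itgax were at 0 and Bst2, itself an interferon-induced gene, was the 1 tested, and the list summed to 200 to 237 FPKM in Ad-Con and 1681 to 1843 in Ad-PDK4. The 8 endothelial markers, with Tie1 and Emcn at 0, summed to 0.634 to 0.827 and 0.924 to 1.18 FPKM. Fibroblast markers summed to 1430 to 1555 FPKM in Ad-Con and 738 to 805 in Ad-PDK4, a sum made up mostly of Col1a1 (1056 and 435 FPKM). Of 6 tested, 4 fell, against 20.8% of all genes, Dcn rose from 90.1 to 161 FPKM and Pdgfra was at 20.5 and 19.9. Fewer cells of a type and less RNA per cell cannot be told apart in such bulk libraries, and the part of these shifts in the results was not tested.

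The promoter windows of 3 genes of the RNA route are shown, the helicase genes with a match to an interferon-response motif and their adaptor. They were picked with the matches and the fold changes known. RefSeq windows on GRCm38.p6, from 250 bases before to 50 bases after the start of transcription, matched 7 of the 10 genes by symbol, in 8 windows. The entries for Dhx58, Zbp1 and Tmem173 were missing. Both strands were searched for the core of the interferon-stimulated response element (ISRE, the letters GAAA, then any 2 bases, then GAAA again), which interferon regulatory factors bind, for the interferon-gamma activated site core (TTCNNNGAA) and for the kappaB motif of NF-kappaB. The letters of the ISRE core were in the windows of Ddx58 (chr4:40239776-40240075, minus strand) and Ifih1 (chr2:62646206-62646505, minus strand), and are in capitals below. The Mavs window (chr2:131233813-131234112, plus strand) held none of the motifs. All sequences run 5′ to 3′ along the gene's strand.
Ddx58: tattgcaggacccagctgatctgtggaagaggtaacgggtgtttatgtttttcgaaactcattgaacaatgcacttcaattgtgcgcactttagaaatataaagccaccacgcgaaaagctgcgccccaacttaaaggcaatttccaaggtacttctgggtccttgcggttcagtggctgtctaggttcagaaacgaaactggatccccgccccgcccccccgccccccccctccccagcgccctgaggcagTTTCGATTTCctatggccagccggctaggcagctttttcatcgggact
Ifih1: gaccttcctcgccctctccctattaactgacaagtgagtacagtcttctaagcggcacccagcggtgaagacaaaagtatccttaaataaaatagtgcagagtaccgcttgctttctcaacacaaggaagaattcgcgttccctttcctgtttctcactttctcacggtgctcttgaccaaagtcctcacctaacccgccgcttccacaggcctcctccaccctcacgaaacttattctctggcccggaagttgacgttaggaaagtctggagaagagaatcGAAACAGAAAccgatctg
Mavs: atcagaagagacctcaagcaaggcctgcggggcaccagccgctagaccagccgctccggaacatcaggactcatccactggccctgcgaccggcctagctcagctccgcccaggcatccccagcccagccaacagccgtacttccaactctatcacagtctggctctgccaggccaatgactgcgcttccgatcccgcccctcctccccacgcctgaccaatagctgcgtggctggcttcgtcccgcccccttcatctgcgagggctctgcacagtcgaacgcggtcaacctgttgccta
In Ddx58 the match read TTTCGATTTC, on the opposite strand of the gene, at bases 3 to 12 after the start. In Ifih1 it read GAAACAGAAA at bases 33 to 42 after the start. The kappaB motif was in a Trex1 window (chr9:109059674-109059973), and the windows of Mb21d1, Tbk1 and Ikbke held none of the 3 motifs. Of these, Tbk1 and Ikbke were also called higher (log2 fold changes 0.38 and 0.69). The genes with the largest rises, Zbp1 and Dhx58, had no window to search. Whether the motif goes with a rise was not tested. The ISRE core was in 3.44% of all 32851 windows in the RefSeq table and in 3.07% of the 11968 windows of tested genes. The corresponding shares of all windows were 8.30% for the interferon-gamma site and 8.46% for kappaB. A match of letters is a description and not a measured binding site.

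Of the 10 genes, 9 had a mean of at least 0.5 FPKM and were tested, and each of these 9 reached that mean in Ad-Con alone. In Ad-PDK4, 7 rose at an adjusted p below 0.05, against 21.8% of the 13423 genes tested that were called higher. None was called lower, against 20.8% of all genes, and 0 were lower at an unadjusted p below 0.05 or in limma-voom on recovered reads. The 4 genes Ddx58, Ifih1, Dhx58 and Zbp1 rose at least 2-fold, against 3.95% of all genes, and 0 fell that far, against 2.68%. The 3 libraries of one group lay wholly apart from those of the other for 8 of the 9 genes, against 54.3% of all genes. The median log2 fold change of the 9 genes was 0.69, and that of all tested genes was -0.003. The scaling between libraries holds the latter near 0. In the order of all 13423 genes by rise, Zbp1 stood at place 12, Dhx58 at 62, Ifih1 at 146 and Ddx58 at 270.

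**Figure D1:**
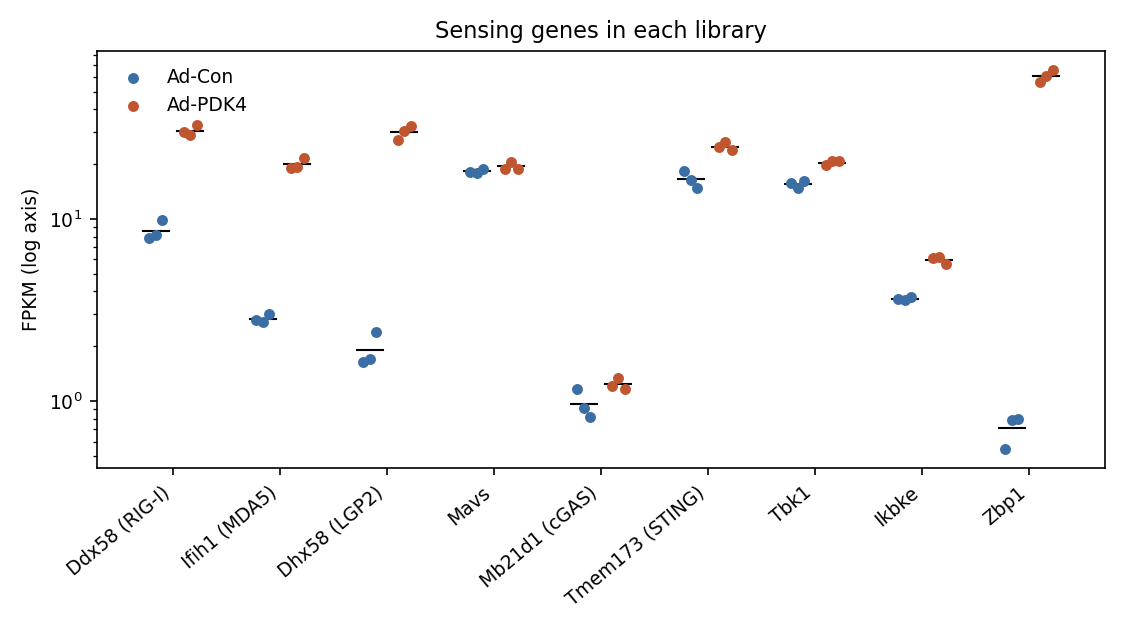
Expression (FPKM, log axis) of the 9 tested cytosolic sensing genes in each Ad-Con and Ad-PDK4 library, with 1 point per library and a line at each group's mean. The Zbp1 points moved from 0.543 to 0.797 FPKM in Ad-Con to 56.7 to 66.0 in Ad-PDK4, and Mavs lay between 17.9 and 20.6 in all 6. Trex1, listed at 0, is not drawn.

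The RNA helicases rose together and to different degrees. Ddx58, which encodes RIG-I (ENSMUSG00000040296, chr4:40203773-40239828, minus strand, GRCm38), was at 7.83, 8.20 and 9.82 FPKM in Ad-Con and at 30.1, 28.9 and 32.8 in Ad-PDK4. Every Ad-PDK4 library lay above every Ad-Con library, and Ad-Con replicate 3 was the highest control. The means were 8.62 ± 1.06 and 30.6 ± 1.97 FPKM (SD, n = 3), a ratio of 3.55, and the log2 fold change was 1.82 (SE 0.09, 95% interval 1.61 to 2.03, adjusted p = 4.4e-06, limma with Benjamini-Hochberg adjustment).

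Ifih1, which encodes MDA5 (ENSMUSG00000026896, chr2:62595798-62646255, minus strand), was at 2.79, 2.72 and 3.01 FPKM in Ad-Con and at 19.1, 19.2 and 21.6 in Ad-PDK4. The groups were far apart, and replicates within each were close to one another. The ratio of the means was 7.02 and the log2 fold change 2.77 (SE 0.07, 95% interval 2.60 to 2.94, limma adjusted p = 1.5e-07), from 390 to 463 reads per control library and 2741 to 3888 per Ad-PDK4 library.

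Dhx58, which encodes LGP2 (ENSMUSG00000017830, chr11:100694884-100704271, minus strand), had the largest rise of the helicases. It was at 1.64, 1.71 and 2.39 FPKM in Ad-Con and at 27.2, 30.4 and 32.4 in Ad-PDK4, with Ad-Con replicate 3 again the highest control and no overlap between groups. The ratio was 15.7 and the log2 fold change 3.92 (SE 0.14, 95% interval 3.58 to 4.25, limma adjusted p = 1.3e-06). Of its exonic bases 4.31% are shared with Dhx58os on the opposite strand, and reads there cannot be told apart where counting ignores strand. Summed over the 3 helicases, the level was 13.4 ± 1.62 FPKM in Ad-Con and 80.5 ± 5.47 in Ad-PDK4 (SD, n = 3).

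Their adaptor did not pass the test. Mavs (ENSMUSG00000037523, chr2:131234063-131248025, plus strand) was at 18.1, 17.9 and 18.8 FPKM in Ad-Con and at 18.8, 20.6 and 18.9 in Ad-PDK4. The lowest Ad-PDK4 library exceeded the highest Ad-Con library by less than the spread between replicates, at means of 18.3 ± 0.443 and 19.5 ± 0.997 (SD, n = 3). The log2 fold change was 0.09 (SE 0.06, 95% interval -0.04 to 0.22, limma adjusted p = 0.246). The interval excluded a rise as large as that of any helicase.

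On the DNA route, STING rose and cGAS did not pass the test. Mb21d1, which encodes cGAS (ENSMUSG00000032344, chr9:78430526-78443237, minus strand), was at 1.17, 0.911 and 0.815 FPKM in Ad-Con and at 1.21, 1.34 and 1.16 in Ad-PDK4. Ad-Con replicate 1 overlapped the Ad-PDK4 range, and the gene had only 61 to 106 reads per library. The log2 fold change was 0.34 (SE 0.18, 95% interval -0.07 to 0.75, limma adjusted p = 0.157), so neither no difference nor a rise of the size seen for STING lay outside the interval. Of its exonic bases 4.87% are shared with Gm8093 on the opposite strand.

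Tmem173, which encodes STING (ENSMUSG00000024349, chr18:35733678-35740554, minus strand), was at 18.3, 16.4 and 14.8 FPKM in Ad-Con and at 24.7, 26.5 and 23.8 in Ad-PDK4. All Ad-PDK4 libraries lay above the controls. The ratio of means was 1.52 and the log2 fold change 0.60 (SE 0.08, 95% interval 0.41 to 0.79, limma adjusted p = 8.5e-04).

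Both kinases rose by less than 2-fold. Tbk1, the kinase shared by the RNA and DNA routes (ENSMUSG00000020115, chr10:121546455-121586787, minus strand), was at 15.9, 14.8 and 16.2 FPKM in Ad-Con and at 19.7, 20.7 and 20.8 in Ad-PDK4. Every Ad-PDK4 library was above every control. The log2 fold change was 0.38 (SE 0.06, 95% interval 0.25 to 0.51, limma adjusted p = 1.2e-03). Ikbke, which encodes IKK-epsilon (ENSMUSG00000042349, chr1:131254343-131279606, minus strand), was at 3.66, 3.59 and 3.72 FPKM in Ad-Con and at 6.07, 6.15 and 5.68 in Ad-PDK4. The groups were again apart, and Ikbke stayed below Tbk1 in FPKM in every library. Its log2 fold change was 0.69 (SE 0.07, 95% interval 0.53 to 0.85, limma adjusted p = 1.7e-04). Of its exonic bases 2.48% are shared with Gm28914 and Gm28913 on the opposite strand.

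Zbp1 had the largest rise of the 9 tested genes. The gene (ENSMUSG00000027514, chr2:173206612-173218923, minus strand) was at 0.543, 0.791 and 0.797 FPKM in Ad-Con, from 39, 49 and 51 reads, and at 56.7, 60.6 and 66.0 in Ad-PDK4, from 3639, 3745 and 5147 reads. It was the lowest of the 9 tested genes in every control library and the highest in every Ad-PDK4 library. The ratio of means was 86.0 and the log2 fold change 6.25 (SE 0.14, 95% interval 5.94 to 6.57, limma adjusted p = 9.6e-08). The fold on the log2(FPKM + 0.1) scale understates the ratio because the control level is low.

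Trex1 (ENSMUSG00000049734, chr9:109057933-109059734, minus strand) was listed at 0 reads in all 6 libraries. All 1147 of its exonic bases are also exonic in Atrip on the same strand. Among 133 protein-coding genes wholly shared with another gene on the same strand, 109 (82.0%) had 0 reads in every library, against 4809 of 15485 (31.1%) with no shared base. The 0 was therefore not read as a level of Trex1. Atrip, an adaptor of the DNA damage kinase ATR, was at 2.74 ± 0.0912 FPKM in Ad-Con and 2.82 ± 0.349 in Ad-PDK4 (SD, n = 3; log2 fold change 0.04, limma adjusted p = 0.818), with overlapping groups.

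**Figure D2:**
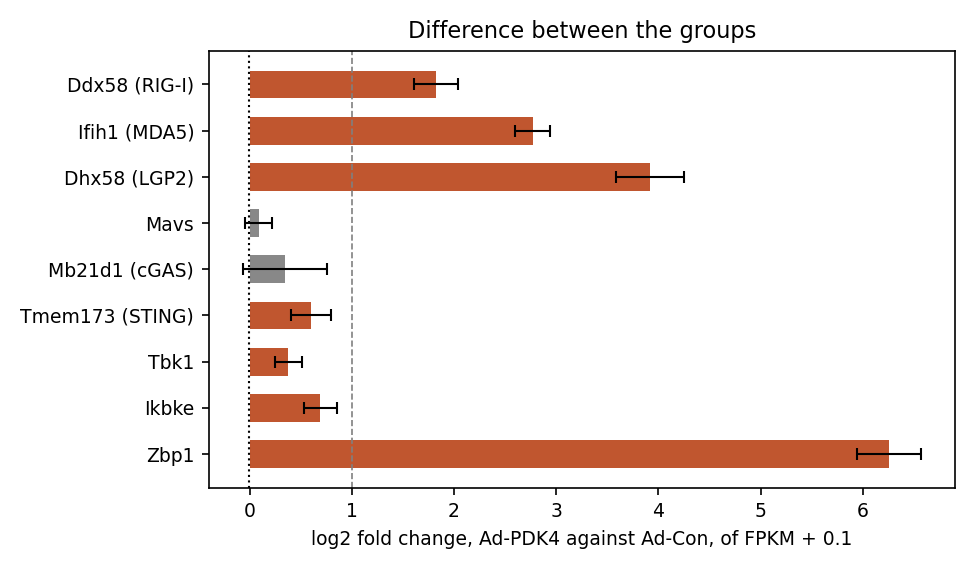
Log2 fold change (Ad-PDK4 against Ad-Con, on the log2(FPKM + 0.1) scale) of the 9 tested sensing genes, as bars from 0 with whiskers for the 95% interval, coloured where called at an adjusted p below 0.05 and grey otherwise, and with a dashed line at a 2-fold rise. Zbp1 at 6.25 and Dhx58 at 3.92 lie farthest to the right, and the intervals of Mb21d1 and Mavs cross 0.

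The unequal rises changed the order of the genes. FPKM divides reads by the listed gene length, so the order of genes also depends on these lengths. For the genes here the listed length was that of all annotated exonic bases (7050 for Ddx58, 3272 for Dhx58), except for Tmem173. It was listed at 2302 bases, against 2741 annotated. Which transcript forms the cells used was not tested. In Ad-Con the order by mean was Mavs (18.3 FPKM), Tmem173 (16.5), Tbk1 (15.6), Ddx58 (8.62), Ikbke (3.66), Ifih1 (2.84), Dhx58 (1.91), Mb21d1 (0.964) and Zbp1 (0.710), with Trex1 left out of the order. Neighbours overlapped between libraries for Mavs and Tmem173 and for Tmem173 and Tbk1. In Ad-PDK4 it was Zbp1 (61.1 FPKM), Ddx58 (30.6), Dhx58 (30.0), Tmem173 (25.0), Tbk1 (20.4), Ifih1 (19.9), Mavs (19.5), Ikbke (5.97), and Mb21d1 (1.24). There Ddx58 overlapped Dhx58, Tbk1 overlapped Ifih1, and Ifih1 overlapped Mavs. Zbp1 went from place 9 to place 1, and Mavs from place 1 to place 7. The summed level of the 9 tested genes went from 69.1 ± 1.77 to 214 ± 9.80 FPKM (SD, n = 3).

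Ratios between partners were compared within each library, which removes a scaling shared by both genes. The log2 ratio of Ifih1 to Ddx58, on FPKM + 0.1, was -1.56 ± 0.11 in Ad-Con and -0.62 ± 0.03 in Ad-PDK4 (SD, n = 3), a difference of 0.95. That of Dhx58 to Ddx58 went from -2.13 ± 0.12 to -0.03 ± 0.11, a difference of 2.10, so Dhx58 reached the FPKM of Ddx58. Reads of Dhx58 stayed fewer in Ad-PDK4 (1619 to 2340, against 3568 to 5103 for Ddx58), at listed lengths of 3272 and 7050 bases. The ratio of Ikbke to Tbk1 went from -2.07 ± 0.04 to -1.76 ± 0.09, a difference of 0.31. The ratio of Mb21d1 to Tmem173 moved the other way, from -3.97 ± 0.10 to -4.23 ± 0.02, a difference of -0.26. In all 4 ratios the libraries of the groups lay apart, and each gave p = 0.1 in an exact two-sided permutation test, also after Benjamini-Hochberg adjustment over the 4. This is the smallest p that 3 against 3 libraries allow, so no ratio could pass 0.05. The share of all gene pairs whose ratios lie apart was not computed. Among single tested genes, 54.3% lay apart between the groups.

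**Figure D3:**
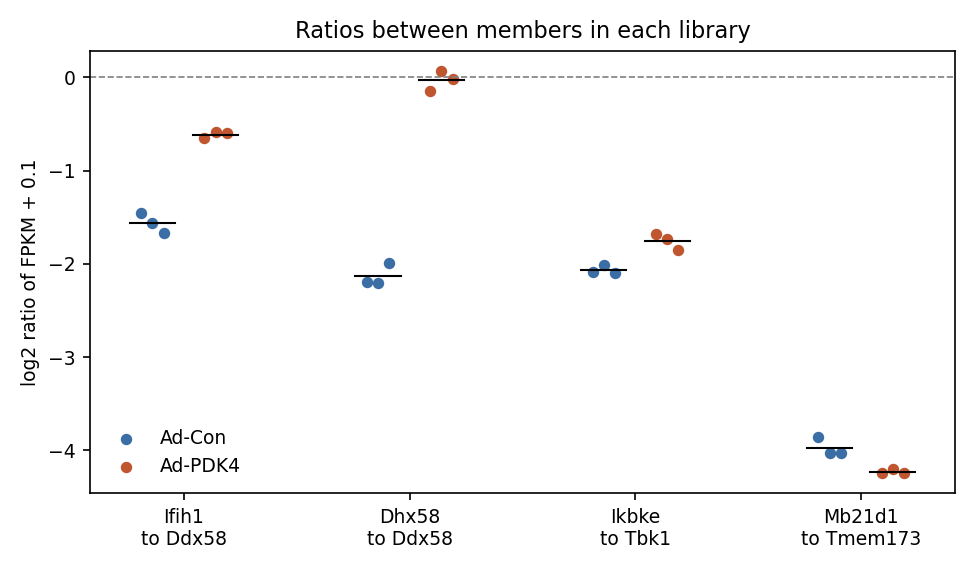
Log2 ratio of FPKM + 0.1 between partner genes in each library, for Ifih1 to Ddx58, Dhx58 to Ddx58, Ikbke to Tbk1 and Mb21d1 to Tmem173, with points for libraries and lines for group means. The first 3 ratios are higher in all Ad-PDK4 libraries and the last is lower.

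The genes also differed in which library was highest. Ad-Con replicate 3 had the highest control value for 7 of the 9 tested genes. Within Ad-PDK4, replicate 3 was highest for 5 and replicate 2 for 4, and replicate 1 was lowest for 5. By the root mean square difference of profiles over the 6 libraries, each centred on its own mean on the log2 scale, the closest pairs of members were Tmem173 with Ikbke (0.107), Mb21d1 with Tmem173 (0.142) and Mavs with Tbk1 (0.153). The farthest apart were Mavs and Zbp1 (3.09). Against the mean profile of the 9 genes, the most alike of 7724 other genes with a mean of at least 5 FPKM were H2-T22 (0.0233), Serping1 (0.0427), Samhd1 (0.0493), Wisp2 (0.0625) and Rnd1 (0.0689). H2-T22, a class Ib major histocompatibility gene, went from 34.6 to 127 FPKM, and Samhd1, an enzyme that depletes deoxynucleotides, from 6.83 to 24.8. With replicates close together, this measure mainly follows the size of the fold change between the groups. The log2 fold changes of these 5 genes lay between 1.79 (Rnd1) and 1.99 (Wisp2). Closeness of members or genes here therefore means a similar fold change, and shared regulation was not tested.

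The surrounding pathway was read from 9 lists of 140 genes, of which 113 were tested. Of these, 47 (41.6%) rose and 21 (18.6%) fell, with a median log2 fold change of 0.11, against the 21.8% and 20.8% of all genes given above, which are also the shares to read each list's counts against. At least 2-fold changes were 14 rises and 2 falls, against 3.95% and 2.68% of all genes. Rnaset2b among the rises and Enpp1 among the falls reached a mean of 0.5 FPKM only through the group where each was higher. All adjusted p-values for the genes named from the lists are from limma with Benjamini-Hochberg adjustment over all tested genes.

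Among cofactors and regulators of the RNA helicases, 7 of 19 rose and 5 fell. Ddx60, a helicase that assists RIG-I, went from 0.616 ± 0.152 to 10.5 ± 1.05 FPKM (log2 fold change 3.90, adjusted p = 1.8e-06), and Trim25, a ubiquitin ligase of RIG-I, from 10.5 ± 0.922 to 33.4 ± 0.748 (1.66, adjusted p = 1.5e-06). The largest falls were those of Prkra, which encodes the double-stranded RNA-binding protein PACT (-0.63), and Pcbp2, a regulator of MAVS turnover (-0.30). Among adaptors of the kinases and the IKK complex, 7 of 14 rose and 4 fell. Traf3 (0.68) and Traf2 (0.49), ubiquitin ligases that carry signals to the kinases, rose, and Optn (-0.52) and Traf5 (-0.31) fell.

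Of 21 STING regulators and genes that handle cyclic dinucleotides, 8 rose and 4 fell. Usp18, an ISG15 protease that restrains interferon signalling, went from 15.7 ± 0.621 to 87.6 ± 2.33 FPKM (log2 fold change 2.47, adjusted p = 6.6e-08). Rhbdf2, which aids STING trafficking, rose by a log2 fold change of 0.80. Enpp1, which hydrolyses cyclic dinucleotides, went from 1.14 ± 0.0514 to 0.488 ± 0.131 FPKM (-1.10, adjusted p = 6.1e-03), and Npc1, a lysosomal cholesterol transporter, fell (-0.57).

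Of 14 tested nucleic acid clearance enzymes, 5 rose and 3 fell. The RNA-editing enzyme Adar went from 6.0 ± 0.245 to 22.1 ± 1.62 FPKM (log2 fold change 1.86, adjusted p = 8.4e-07). The ribonuclease gene Rnaset2b rose by 2.32 on the log2 scale, though reads of its near-identical copy Rnaset2a make its level uncertain. Rnaset2b was at 0.334 FPKM in Ad-Con and 2.07 in Ad-PDK4, so it reached the level for testing only through Ad-PDK4. Dnase1l1 (-0.76) and Dnase2a (-0.36), both deoxyribonucleases, fell. Of 19 other RNA and DNA sensors, 9 rose and 1, Xrcc5 of the Ku complex (-0.58), fell. The rises were led by the PYHIN genes Ifi207 (4.05) and Ifi204, which went from 5.46 ± 0.101 to 63.1 ± 6.78 FPKM (3.50, adjusted p = 9.6e-08). These genes belong to a family of close copies, and their counts are uncertain to that extent.

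RNA polymerase III, which can turn cytosolic DNA into RNA that RIG-I detects, had 2 of 11 subunits higher, Polr3e (0.56) and Polr3a (0.34), and 3 lower, led by Polr3g (-1.02) and Polr3gl (-0.32). These counts are near the shares of all genes called higher (21.8%) and lower (20.8%). Among 6 effectors of ZBP1, Mlkl, the executioner of necroptosis, went from 11.9 ± 0.636 to 36.5 ± 2.09 FPKM (log2 fold change 1.61, adjusted p = 1.3e-06), Casp6 fell (-0.55) and 4 did not pass the test. Ripk3, the kinase between ZBP1 and MLKL, was one of these, at 7.37 FPKM in Ad-Con and 6.77 in Ad-PDK4 (-0.13, adjusted p = 0.247), and is named here after its values were seen.

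Of 9 transcription factors of the pathways, 8 rose and 0 fell, with a median log2 fold change of 0.68. The largest rises were those of Irf7 (5.00) and Irf5, which went from 1.31 ± 0.214 to 5.61 ± 0.443 FPKM (2.02, adjusted p = 1.5e-05). Irf3, a direct substrate of TBK1, was the 1 that did not pass, at 11.5 and 11.6 FPKM (0.02, adjusted p = 0.877), and is named after its values were seen. None of the 20 genes for type I and type III interferons reached the level for testing. Of these, 16 had 0 reads in every library and 18 had at most 3 reads in each. The other 2 are named after their values were seen. Ifnb1 had 0 reads in each Ad-Con library and 7, 5 and 5 in Ad-PDK4, and Ifne had 0 to 4 reads in Ad-Con and 0 in each Ad-PDK4 library.

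**Figure D4:**
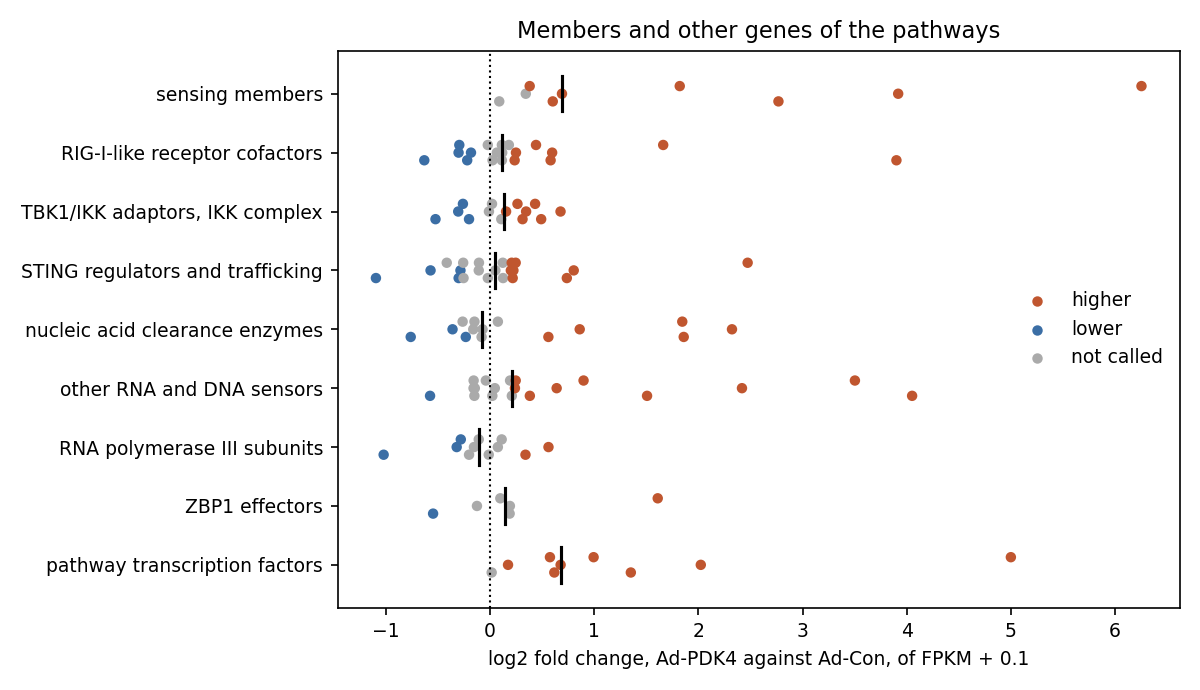
Log2 fold change of the 9 tested sensing genes (top row) and of every tested gene of the pathway lists, 1 row per list, with 1 point per gene coloured by its call at an adjusted p below 0.05 and a black line at each row's median. Among the list genes Irf7 at 5.00 and Ifi207 at 4.05 are the farthest to the right, and Polr3g at -1.02 and Enpp1 at -1.10 are the farthest to the left.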

How the data were processed

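RNA-seq values of 6 libraries were analysed, grouped by their treatment labels as 3 Ad-Con and 3 Ad-PDK4. The deposited table gave FPKM per gene and library, computed by the authors from read counts, with gene lengths in bases. The submitters' processing notes name CASAVA 1.8, fastp, HISAT2 2.0.5, featureCounts 1.5.0-p3, DESeq2 1.20.0 and GRCm39, without roles. The coordinates of 98.3% of the identifiers found in GENCODE M21 were those of GRCm38, which is used here. The labels name a SMARTER kit and the methods a NEBNext kit. Whether counting used strand is not given in the sources used here.

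FPKM times gene length gave whole reads (100% within 0.01), and the FPKM were already scaled by the authors between libraries. The scaling equalled the median of ratios, the median over genes of a library's reads to the gene's geometric mean. After adding 0.1 and taking log2, the groups were compared in limma 3.58.1 (R 4.3.3, trend and robust moderation, no covariates) over the 13423 genes with a mean of at least 0.5 FPKM, with Benjamini-Hochberg adjustment over all of them. Pair ratios were compared by exact two-sided permutation tests. The genes and lists were chosen with earlier results of these data known. Named genes were the 10 members, Pdk4, genes overlapping a member, the 2 largest rises and falls past the threshold in each list, and the 5 genes most alike in profile. Ripk3, Irf3, Ifnb1, Ifne, the neighbouring genes and single cell type markers fall outside this rule and were named after their values were seen. Samples with the same replicate number did not deviate together. Depth was 17588942 to 21861872 reads per library. Alternatives covered the pseudocount, filter, scaling, moderation, replicate block, limma-voom and each library left out.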

Additional observations from a re-analysis of the deposited data

How the results depend on the processing

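Each result was recomputed under 17 alternatives (12 for the pair ratios). Rescaling by the median of ratios, among these, could hardly differ, because the deposited FPKM were already scaled that way. It gave the same 2928 genes higher and 2798 lower as the main fit. Every tested sensing gene kept its direction and its side of the 0.05 threshold in all alternatives that could be run. Mb21d1 and Ikbke were not tested at a mean of at least 5 FPKM. There 6 rather than 7 genes were called higher, 4 rose at least 2-fold in every alternative, and 0 were called lower in any. The median log2 fold change of the tested genes moved from 0.69 to 0.58 with a pseudocount of 1 and to 1.82 with a mean of at least 5 FPKM, which leaves 7 genes. The log2 fold change ranged from 1.72 to 1.92 for Ddx58, 2.45 to 2.81 for Ifih1, 3.42 to 4.08 for Dhx58 and 5.18 to 6.45 for Zbp1. The adjusted p ranged from 0.098 to 0.65 for Mavs and from 0.089 to 0.36 for Mb21d1. All-gene counts ranged from 2162 to 3367 higher and 1881 to 3138 lower. With the replicate number as a block, 7 genes were higher, 4 of them at least 2-fold, and 2759 of all genes were higher and 2626 lower. The numbers are shared only by name (correlations of deviations -0.05, -0.03 and -0.001). Reads limit Mb21d1 and the controls of Zbp1 most, and 3 libraries per group limit the exact permutation test of the pair ratios to p = 0.1.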

Other observations

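Genes next to the sensing genes gave a measure of their surroundings. Of 20 tested neighbours on either side, 7 rose and 2 fell, against 21.8% and 20.8% of all tested genes, with a median log2 fold change of 0.16. The 1 that rose at least 2-fold was Shisa5, beside Trex1 (1.07, limma adjusted p = 1.8e-06 with Benjamini-Hochberg adjustment). The genes beside Zbp1 were at 0.25 (Rbm38) and 0.49 (Pmepa1), and those beside Dhx58 at -0.56 (Nkiras2) and 0.26 (Kat2a).

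Complete exonic overlap went with a listing at 0 reads also on the opposite strand. Of 38 protein-coding genes wholly shared with a gene on the opposite strand, 37 (97.4%) had 0 reads in every library, as had 703 of 6372 (11.0%) with some but not all bases shared. Whether overlap accounts for these listings was not tested.

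Of the promoter windows of genes called higher by at least 2-fold, 454 in number, 90 (19.8%) held the ISRE core, 10.8% the interferon-gamma site core and 15.2% the kappaB motif. The shares over windows of all tested genes were 3.07%, 6.68% and 10.4%. The genes called higher were picked by their rise in these same libraries, so the shares are a description. Windows of genes called lower were not counted, and regulation through these motifs was not tested.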
